A study of Mus musculus with 14 samples.

Results

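This report sets cells sorted as LGR5 positive against whole crypt cells of the mouse ileum, across all genes. Sorting for LGR5 therefore goes with group, and effects of the sort cannot be told apart from differences between the cells. The comparison takes 5 of the 14 RNA-seq libraries of the series, 2 of ileal LGR5 cells and 3 of ileal crypt cells, chosen by their labels and not by any measured value. All 14 libraries came from C57Bl6 mice labelled male and aged 6 to 12 weeks, and none carried a treatment in the labels. Ileum was the segment 5 to 8 cm from the cecum. The other libraries are ileal CD166 cells (2) and the matching jejunal LGR5, CD166 and crypt cells (2, 2 and 3), which entered the shared model and 2 side comparisons. The sources used here do not say how LGR5 was marked for sorting, so whether the LGR5 mice carried a reporter allele that the crypt mice lacked is not known here. The design text has sorted cells going straight into RNA lysis buffer, while the culture protocol attached to each sample describes growth in Matrigel. Nothing in the labels says whether libraries of a group came from separate mice, so p-values measure the spread between these libraries only, which may be technical.

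LGR5 is a receptor for R-spondins, ligands that strengthen Wnt signalling, and in the small intestine it marks crypt base columnar cells, the cycling stem cells wedged between Paneth cells at the crypt floor. Their daughters divide in the transit-amplifying zone and become absorptive enterocytes or, where Notch signalling is low, secretory goblet, Paneth, enteroendocrine or tuft cells. The ileum absorbs bile acids and vitamin B12, and Hox genes differ in expression along the gut.

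The 5 libraries held 10610053 and 8723351 assigned reads (LGR5 libraries 1 and 2) and 8356893, 6599354 and 8991494 (crypt libraries 1, 2 and 3). Crypt library 3 stood apart from its group. It differed beyond counting noise from jejunal crypt library 1 at 16.6% of genes, where 5% come by chance, but from ileal crypt libraries 1 and 2 at 62.2% and 49.3%, and its rank correlation across genes with that jejunal library was 0.992. Fabp6, which carries bile acids inside ileal enterocytes, was at 2690 and 1990 CPM (TMM-normalised read counts scaled to a common library size) in crypt libraries 1 and 2 and at 25.8 in crypt library 3. Gata4, a jejunal transcription factor, was at 28 and 45.4 CPM there and at 233 in crypt library 3. Xist, the X-inactivation RNA, was at 371 and 503 CPM in the LGR5 libraries and at 1670, 3.01 and 2.86 in the crypt libraries, and the Y-linked Ddx3y was at 21.8 and 15.8 against 0, 53.1 and 53.5, although every library is labelled male. Below, an adjusted p "without crypt library 3" is given for named genes that lost their call when that library was left out, and for some that kept it.

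Across the 14750 genes tested, 828 (5.61%) passed an adjusted p of 0.05 between ileal LGR5 and crypt cells. LGR5 cells were higher for 221 genes (1.50%) and lower for 607 (4.12%). The lower genes were also the ones with the bigger differences: 217 of them were lower by 8-fold or more, against 10 of the higher genes, and the median log2 difference was -2.21 among lower genes and 1.4 among higher ones. The median over all tested genes was 0. In bulk libraries of this kind, fewer cells of a type and less RNA per cell cannot be told apart. Leaving out crypt library 3 left 506 of 14740 genes (3.43%), 83 higher (0.563%) and 423 lower (2.87%). Leaving out LGR5 library 1 left 116 genes and leaving out LGR5 library 2 left 210, fits in which the lone LGR5 library is assumed to vary like the other groups.

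Of the gene lists examined, the enterocyte list had the most calls, all lower in LGR5 cells. The genes higher in LGR5 cells included stem cell genes, Wnt and Notch genes and immediate early genes. Genes of DNA replication and mitosis had no calls in either direction with edgeR, DESeq2 or limma-voom, with 1 and 0 at an unadjusted p under 0.05. The plot of gene lists shows how the lists lay.

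**Figure D1:**
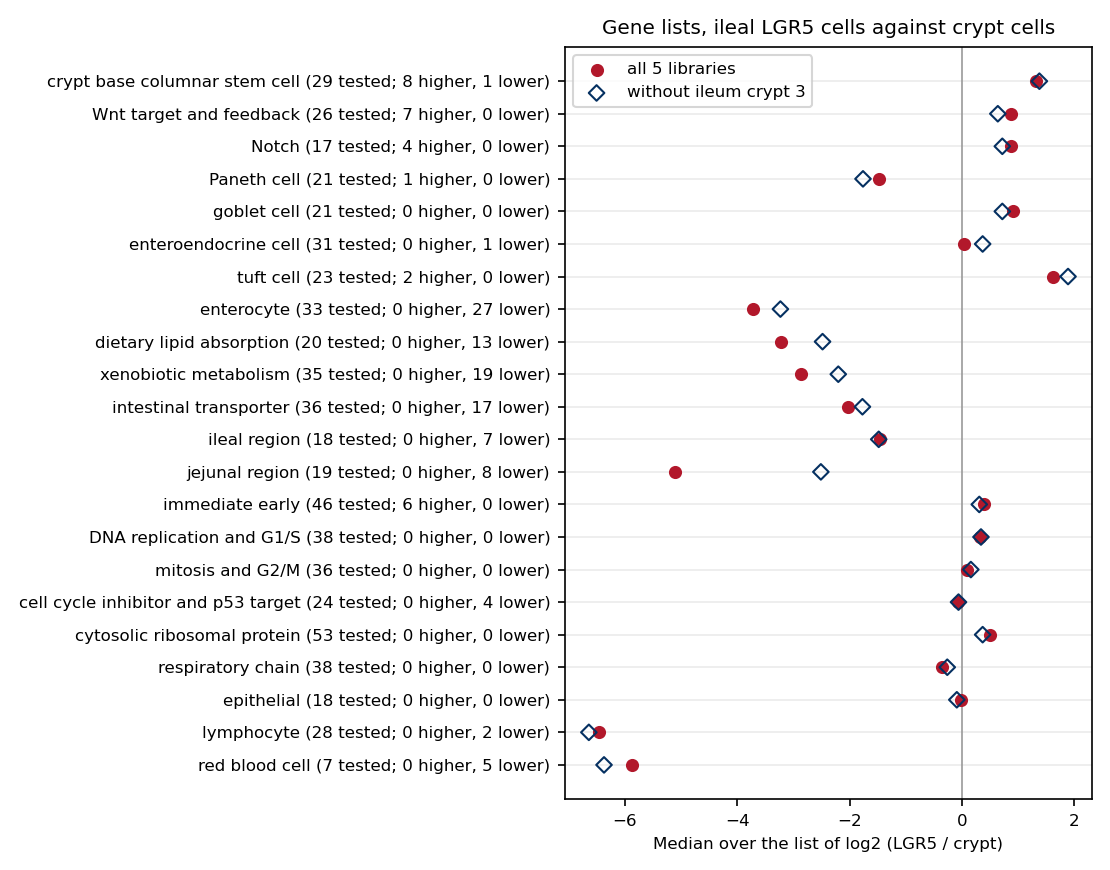
Median log2 difference, ileal LGR5 minus crypt cells, over the tested members of 22 gene lists; red points use all libraries, open diamonds leave out crypt library 3, and the labels give how many members passed higher and lower. The enterocyte list lies at -3.71 with 27 of 33 members lower, the crypt base columnar list at 1.32 with 8 of 29 higher and 1 lower.

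Of 29 crypt base columnar stem cell genes, 8 were higher in LGR5 cells, 1 was lower and 20 did not pass the test, beside the 1.50% and 4.12% of all genes called in each direction. The list's median log2 difference was 1.32 against 0 for all genes, and 27 members lay above 0. For 24 members both LGR5 libraries lay above all 3 crypt libraries, which held for 21.7% of all tested genes (44.4% were without overlap in either direction). Lgr5 itself, the sorted marker, was at 339 and 123 CPM in the LGR5 libraries and at 57.8, 80.2 and 39.2 CPM in the crypt libraries. Both LGR5 libraries were above every crypt library, but library 2 was closer to the crypt libraries than to library 1. The fitted difference was 1.97 ± 0.46 on the log2 scale (SE, as for every log2 difference here), 3.92-fold, with an adjusted p of 0.0322. Without crypt library 3 it was 1.75 with an adjusted p of 0.0964. Since Lgr5 was the sorted marker, its level checks the sort and is not a finding, though it is among the 8 higher members.

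**Figure D2:**
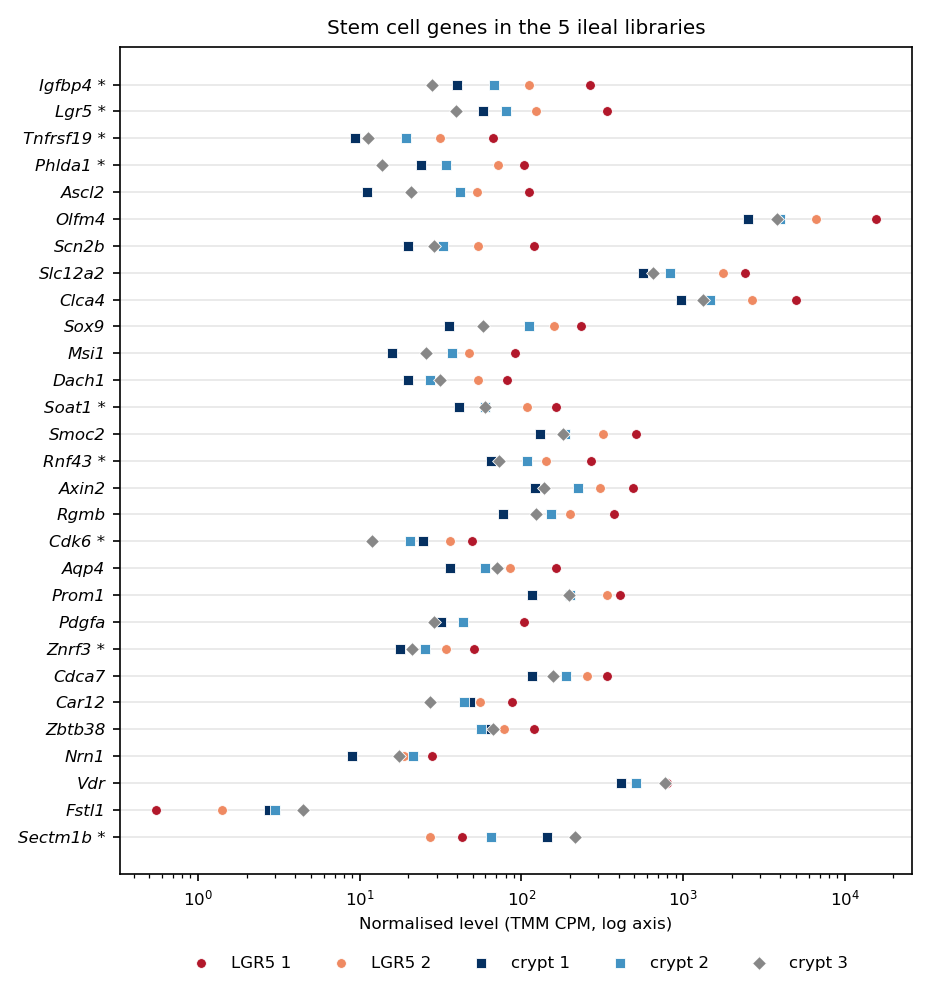
Normalised level (TMM CPM, log axis) of the 29 crypt base columnar genes in each of the 5 ileal libraries, one symbol per library; an asterisk marks genes that passed the test. For most genes the red and orange LGR5 points lie to the right of the crypt points; Sectm1b, at 43 and 27.2 against 144, 65.4 and 216 CPM, lies to the left.

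Membrane regulators of Wnt signalling were among the members that passed. Rnf43, a ubiquitin ligase that removes Frizzled receptors, was at 268 and 143 CPM in LGR5 cells and at 65.4, 109 and 72.7 in crypt cells. It was higher by 1.32 ± 0.29 (adjusted p = 0.0245). Znrf3, its close relative, was at 51 and 34.3 against 17.9, 25.2 and 21.2 CPM and was higher by 1 ± 0.26 (adjusted p = 0.0481). For both genes the groups did not overlap, and LGR5 library 1 was the higher of its pair. Tnfrsf19, a Wnt-induced receptor also called Troy, was at 67.2 and 31.6 against 9.35, 19.4 and 11.2 CPM, a difference of 1.9 ± 0.47 (adjusted p = 0.0423). Igfbp4, a secreted binding protein for insulin-like growth factors, was at 264 and 111 against 39.8, 67.7 and 28.2 CPM, a difference of 2.06 ± 0.46 (adjusted p = 0.0272). None of these 4 passed without crypt library 3, with adjusted p-values of 0.0797 for Rnf43, 0.108 for Znrf3, 0.111 for Tnfrsf19 and 0.0832 for Igfbp4.

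Only Phlda1 and Soat1 of the 8 higher stem genes also passed without crypt library 3. Phlda1, a pleckstrin homology protein, was at 104 and 71.7 CPM in LGR5 cells and at 24.1, 34.4 and 13.8 in crypt cells, a difference of 1.87 ± 0.37 (adjusted p = 0.0143, and 0.0349 without that library). Soat1, which esterifies cholesterol for storage, was at 163 and 109 against 41, 59.8 and 59.7 CPM, a difference of 1.34 ± 0.26 (adjusted p = 0.0128, and 0.0287 without it). Both were separated by group with no overlap. Cdk6, the cyclin-dependent kinase of G1, was at 49.5 and 36.3 against 24.6, 20.6 and 12 CPM (1.17 ± 0.29, adjusted p = 0.0388, and 0.0799 without it). Leaving out LGR5 library 1 left 0 of the list called higher, LGR5 library 2 6, crypt library 1 3, crypt library 2 7 and crypt library 3 2. DESeq2 called 17 and limma-voom 8 with all libraries.

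Several genes most used to define these cells did not pass. Olfm4, a secreted glycoprotein of the stem cell zone, was at 15600 and 6660 CPM in LGR5 cells and at 2520, 3950 and 3820 in crypt cells, with no overlap, a difference of 1.7 ± 0.48 and an adjusted p of 0.0615. Ascl2, the transcription factor that sets the stem cell programme, was at 111 and 53.2 against 11.1, 41.8 and 20.9 CPM (1.75 ± 0.65, adjusted p = 0.132). Crypt library 2 came close to LGR5 library 2 for this gene. Slc12a2, a basolateral chloride cotransporter, had 2430 and 1760 against 562, 827 and 649 CPM and an adjusted p of 0.0527. Smoc2 and Axin2 gave adjusted p-values of 0.0698 and 0.122 at log2 differences of 1.32 and 1.3. Sectm1b, the lower member, differed by -2.01 ± 0.47 (adjusted p = 0.0331, and 0.0823 without crypt library 3).

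Of 7 surface markers used in intestinal sorts, Lgr5 and Cd44 were higher and none was lower, with 0 calls without LGR5 library 1, 1 without crypt library 1 and 1 without crypt library 3. Over all genes 1.50% were called higher and 4.12% lower, and Lgr5 is the marker that was sorted on. Cd44, a hyaluronan receptor and Wnt target, was at 233 and 115 CPM in LGR5 cells and at 60, 67.5 and 47.9 in crypt cells. It was higher by 1.57 ± 0.26 (adjusted p = 0.00582, and 0.0223 without crypt library 3). Alcam, which encodes CD166, was at 50.6 and 46.4 against 34.1, 36.5 and 47.7 CPM, so the groups overlapped (0.3 ± 0.23, adjusted p = 0.478). Epcam, the pan-epithelial adhesion protein, was at 1780 and 1640 against 1900, 1710 and 1680 CPM, and the 18 epithelial genes summed to 14200 and 15600 against 16900, 17800 and 16500 CPM. None of the 18 passed with edgeR or limma-voom, 3 had an unadjusted p under 0.05, and DESeq2 called 2, both lower.

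Of 13 genes proposed for reserve or quiescent stem cells, 2 were higher and none was lower, beside 1.50% and 4.12% of all genes. Dll1, a Notch ligand of secretory progenitors, was at 123 and 266 CPM in LGR5 cells and at 37.5, 69.9 and 65.5 in crypt cells, a difference of 1.75 ± 0.34 (adjusted p = 0.013, and 0.0314 without crypt library 3). Here LGR5 library 2 was the higher of its pair. Mex3a, an RNA-binding protein, was at 30.8 and 21.8 against 7.18, 13.4 and 8.46 CPM (1.45 ± 0.3, adjusted p = 0.0196, and 0.0661 without crypt library 3). Bmi1, a Polycomb protein, was nearly level in all 5 libraries, at 37.4 and 37.7 against 35.2, 35.6 and 34.5 CPM (0.1 ± 0.22, adjusted p = 0.835). Hopx and Lrig1 lay at 0.88 and 1.17 with adjusted p-values of 0.064 and 0.108. The 2 calls became 1 without crypt library 3, 1 without LGR5 library 1 and 0 without LGR5 library 2.

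Wnt target and feedback genes were higher for 7 of 26 tested members and lower for none, beside 1.50% and 4.12% of all genes. Their median was 0.88. The 7 include Rnf43, Znrf3 and Tnfrsf19 of the stem cell list and Cd44 of the sort markers, all described above. Sox4, a transcription factor of the crypt base, was at 313 and 204 CPM in LGR5 cells and at 63.1, 98.1 and 62.6 in crypt cells (1.79 ± 0.43, adjusted p = 0.034). Apcdd1, a membrane-bound inhibitor of Wnt signalling, was at 18.9 and 11.8 against 3.08, 5.28 and 1.14 CPM (2.29 ± 0.54, adjusted p = 0.0338). Fzd7, the Frizzled receptor needed by these stem cells, was at 80.6 and 40.6 against 22.8, 30.7 and 26.1 CPM (1.19 ± 0.29, adjusted p = 0.0398). In each of these the groups were separate, and without crypt library 3 none passed (adjusted p = 0.1 for Sox4, 0.0648 for Apcdd1 and 0.0983 for Fzd7). Ctnnb1, which encodes beta-catenin, was at 942 and 865 against 721, 921 and 844 CPM and overlapped (0.12 ± 0.22, adjusted p = 0.785). The number called higher was 1 without crypt library 3, 1 without crypt library 1, 4 without LGR5 library 2 and 0 without LGR5 library 1.

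Notch pathway genes were higher for 4 of 17 tested members and lower for none, beside 1.50% and 4.12% of all genes. Their median was 0.87. Notch1, the receptor, was at 198 and 97.9 CPM in LGR5 cells and at 54.4, 54.6 and 54.5 in crypt cells, which were level with each other. It was higher by 1.44 ± 0.25 (adjusted p = 0.00701, and 0.0247 without crypt library 3). Notch2 differed by 0.87 ± 0.22 (adjusted p = 0.0423, and 0.109 without that library). The ligands went the same way, Dll1 as above and Dll4 at 45.3 and 86.5 against 17.1, 31.5 and 18.9 CPM (1.55 ± 0.35, adjusted p = 0.0284, and 0.0885 without it). Atoh1, the factor that starts secretory fate, was at 72 and 177 against 44.3, 76.6 and 25.8 CPM and did not pass (1.35 ± 0.53, adjusted p = 0.153). The number called higher was 2 without crypt library 3, crypt library 1 or LGR5 library 2, and 1 without LGR5 library 1. Among 10 Eph receptors and ephrins, which keep cells at their place along the crypt, edgeR called 0, 7 had an unadjusted p under 0.05, DESeq2 called 2 higher and 3 lower and limma-voom 2 higher. Ephb3, the receptor of the crypt base, was at 168 and 88.7 against 33.1, 64.7 and 26.1 CPM (1.64 ± 0.44, adjusted p = 0.054).

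Genes of growth factor signalling were higher for 3 of 34 tested members and lower for none, beside 1.50% and 4.12% of all genes. Etv5, a transcription factor induced by receptor tyrosine kinases, was at 32 and 43.3 CPM in LGR5 cells and at 5.24, 12.8 and 5.15 in crypt cells (2.29 ± 0.37, adjusted p = 0.00569, and 0.0188 without crypt library 3). Fgfr2, a fibroblast growth factor receptor, was at 77 and 129 against 23.6, 41.1 and 24.9 CPM (1.79 ± 0.41, adjusted p = 0.0298). Igf1r, the receptor for insulin-like growth factor, was at 33.7 and 19.8 against 6.84, 10.2 and 8.23 CPM (1.67 ± 0.41, adjusted p = 0.0381). The groups did not overlap for any of these 3 genes, and Fgfr2 and Igf1r lost their calls without crypt library 3 (adjusted p = 0.0926 and 0.0969). Calls numbered 1 without crypt library 1, crypt library 3 or LGR5 library 1, 0 without LGR5 library 2 and 6 without crypt library 2.

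Among the secretory lineages, Paneth cell genes had a median of -1.48 over 21 tested members. Over the 23 members measured, tested or not, the summed level was 10800 and 11200 CPM in LGR5 cells. In crypt cells it was 39900, 47500 and 19500 CPM. Lyz1, the Paneth lysozyme, was at 3620 and 3240 against 15400, 17400 and 7020 CPM. Both LGR5 libraries lay below all crypt libraries, yet the difference of -1.95 ± 0.59 had an adjusted p of 0.0743. Defa24, an antimicrobial defensin, had 2590 and 2740 against 9910, 11900 and 5950 CPM (-1.79 ± 0.56, adjusted p = 0.0823), and the near-identical defensin genes may share reads. Among the 21 the test called Dll4 alone, a Notch ligand also in the Notch list, in the higher direction. That call was lost without crypt library 1, crypt library 3, LGR5 library 1 or LGR5 library 2. With crypt library 3 left out, edgeR instead called 1 member lower, Defa3, a defensin named after its values were seen (-2.2, adjusted p = 0.0497). DESeq2 called 7 members lower and 1 higher, and limma-voom 2 lower and 1 higher.

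Goblet cell genes had a median of 0.91 over 21 members, with 0 called by edgeR, 7 at an unadjusted p under 0.05, 2 called higher by DESeq2 and 0 by limma-voom, and 2 called by edgeR without crypt library 2. Muc2, the main intestinal mucin, was at 1390 and 1800 CPM in LGR5 cells and at 856, 2830 and 1310 in crypt cells, so that the groups overlapped. Fcgbp, a mucus protein, was at 3330 and 9230 against 2190, 4150 and 4200 CPM, and Clca3, another goblet product, at 657 and 3980 against 1370, 1550 and 787. In both genes LGR5 library 2 was the highest of the 5 libraries, while library 1 lay among the crypt libraries for Fcgbp and below them for Clca3.

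Tuft cell genes, which mark rare chemosensory cells, lay above 0 for all 23 tested members, with a median of 1.63. Of these 2 passed, beside 1.50% of all genes called higher. Ptgs1, the prostaglandin synthase of tuft cells, was at 12.8 and 25.8 CPM in LGR5 cells and at 6.73, 3.77 and 5.15 in crypt cells (1.88 ± 0.44, adjusted p = 0.0317). Pou2f3, the master factor of the lineage, was at 23.9 and 46.4 against 3.88, 11.6 and 8.58 CPM (2.14 ± 0.56, adjusted p = 0.0487). Their adjusted p-values were 0.086 and 0.106 without crypt library 3. Dclk1 and Trpm5, a kinase and a cation channel of these cells, were at 59.5 and 205 against 20.9, 38.6 and 46.5 CPM, and at 51.4 and 160 against 17.8, 27.1 and 36.3 CPM. Neither passed (adjusted p = 0.0921 and 0.0541), although no LGR5 library overlapped a crypt library. With all libraries limma-voom called 1 member of the list. The 2 calls became 0 without LGR5 library 2, 0 without crypt library 3 and 1 without LGR5 library 1, crypt library 1 or crypt library 2, and DESeq2 called 10.

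Enteroendocrine genes had a median of 0.03 over 31 members, with 17 above 0 and 14 below. There was 1 lower call, beside 4.12% of all genes called lower, and DESeq2 called 2 lower and 1 higher. Tph1, the serotonin-making enzyme of enterochromaffin cells, was at 2.21 and 4.63 CPM in LGR5 cells and at 6.5, 15.8 and 14.3 in crypt cells (-1.84 ± 0.42, adjusted p = 0.0299, and 0.0777 without crypt library 3). Chga, a granule protein, was at 40.5 and 75.7 against 56.3, 178 and 145 CPM, and Chgb, its relative, at 99.3 and 203 against 83.7, 312 and 342 CPM. Both overlapped between the groups. Pcsk1, another member, went the other way, with an adjusted p of 0.0864 and log2 differences from 0.99 to 1.14 over all fits. The list had 0 lower calls without either LGR5 library or without crypt library 2 or 3, and 2 without crypt library 1.

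The LGR5 libraries differed from each other along the same lists. Relative to library 2, library 1 had the higher level for 28 of 29 crypt base columnar genes (median log2 ratio 0.66), 22 of 26 Wnt genes (0.55), 35 of 38 DNA replication genes (0.42) and 53 of 53 ribosomal protein genes (0.42). Library 2 had the higher level for all 23 tuft genes (-1.36), 20 of 21 goblet genes (-1.47), 29 of 31 enteroendocrine genes (-1.07) and 25 of 26 genes of the unfolded protein response (-0.48). Over all 14697 gene symbols the median ratio was 0.02. Enterocyte genes were divided, 18 higher in library 1 and 15 in library 2. With 1 library of each kind these ratios have no replicate check. In the group comparison, the log2 difference of Lgr5 was 1.05 without library 1 and 2.49 without library 2. For Pou2f3, a tuft gene, it was 2.53 without library 1 and 1.54 without library 2. These values come from the same libraries and are no separate check.

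**Figure D3:**
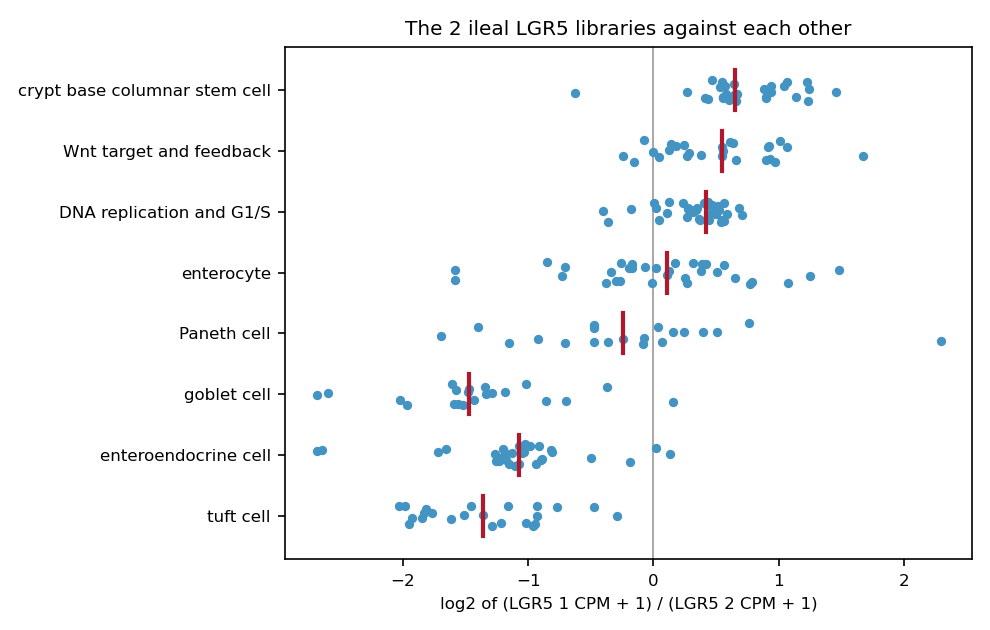
Log2 ratio of LGR5 library 1 to LGR5 library 2, each CPM raised by 1, for the members of 8 gene lists; each point is a gene and the red bar is the list's median. Stem cell genes lie mostly above 0 (median 0.66), goblet, enteroendocrine and tuft genes below it (-1.47, -1.07 and -1.36).

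Absorptive genes were lower in LGR5 cells. Of 33 enterocyte genes 27 were lower in LGR5 cells, beside 4.12% of all genes, none was higher, and all 33 lay below 0 with a median of -3.71. For 32 members both LGR5 libraries lay below all crypt libraries, against 22.7% of all genes. Without crypt library 3, 24 were called and the median was -3.23. The number of calls was 8 without LGR5 library 1 and 12 without LGR5 library 2, while DESeq2 called 30 and limma-voom 22.

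Brush border hydrolases were among the genes called lower. Sis, the sucrase-isomaltase that splits dietary disaccharides, was at 57.6 and 65.9 CPM in LGR5 cells and at 1170, 1050 and 2540 in crypt cells. The difference was -4.69 ± 0.44, 25.7-fold, with an adjusted p of 0.000336 and, without crypt library 3, -4.17 and 0.000178. Enpep, an aminopeptidase, was at 44.6 and 53.6 against 697, 482 and 754 CPM (-3.71 ± 0.33, adjusted p = 0.00028). Anpep, the abundant aminopeptidase N, was at 127 and 73.8 against 2400, 1770 and 4170 CPM (-4.79 ± 0.52, adjusted p = 0.000675). In all of these the LGR5 libraries were close to each other relative to the gap.

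Slc15a1, the di- and tripeptide transporter, was at 4.14 and 5.17 CPM in LGR5 cells and at 210, 71.4 and 263 in crypt cells (-5.29 ± 0.61, adjusted p = 0.000934). Apoa1, an apolipoprotein of high density lipoprotein, was at 48.1 and 16.6 against 2030, 1020 and 2940 CPM (-5.94 ± 0.81, adjusted p = 0.00229). For both, no LGR5 library overlapped a crypt library. Ceacam20, a microvillus adhesion protein, and Slc26a3, the chloride-bicarbonate exchanger, differed by -4.83 ± 0.46 and -2.83 ± 0.35.

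The 6 enterocyte genes that did not pass were Vil1, Krt8, Mgam, Fabp1, Fabp2 and Ada, named here because the count is small. Vil1, which bundles actin in microvilli, was at 581 and 736 CPM in LGR5 cells against 1160, 1050 and 1880 (-1.05 ± 0.29, adjusted p = 0.0607). Mgam, a maltase, was at 1420 and 820 against 1220, 1360 and 1390 CPM and overlapped. Fabp1, a fatty acid binding protein, was at 9.38 and 10.7 against 12.9, 98.7 and 1060 CPM, with crypt library 3 the highest (-5.29 ± 1.5, and -2.47 without that library).

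CAAAGTCC is the core of a binding element of HNF4, a nuclear receptor pair that drives enterocyte genes. Treh and Rbp2, both among the largest lower differences, hold a match to it in their promoters. Their promoters are shown for that reason, from RefSeq on GRCm38.p6, 250 bases up to the base before the start, 5′ to 3′ on the gene's strand, with matches on either strand in capitals. The authors' build was mm9, so these coordinates are those of the sequence table.
Treh, chr9:44672983-44673232, plus strand: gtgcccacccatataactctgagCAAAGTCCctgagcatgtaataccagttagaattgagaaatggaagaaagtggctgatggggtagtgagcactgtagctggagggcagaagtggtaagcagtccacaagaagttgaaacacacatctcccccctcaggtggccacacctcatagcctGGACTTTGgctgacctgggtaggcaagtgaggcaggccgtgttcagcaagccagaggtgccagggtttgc
Rbp2, chr9:98490287-98490536, plus strand: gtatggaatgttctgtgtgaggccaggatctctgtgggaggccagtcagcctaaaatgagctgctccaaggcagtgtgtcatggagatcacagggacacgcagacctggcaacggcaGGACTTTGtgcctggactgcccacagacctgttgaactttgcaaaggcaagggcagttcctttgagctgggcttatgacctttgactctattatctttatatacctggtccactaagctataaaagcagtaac
Treh, the trehalase of the brush border, held matches beginning 227 and 70 bases before the start, and Rbp2, the retinol binding protein of enterocytes, 1 beginning 133 bases before it. The motif stood in 1.22% of 27025 promoters of this length, in 1.4% of those of tested genes, in 16 of 413 (3.87%) of genes lower in LGR5 cells, in 1 of 161 higher genes and in 4 of 30 enterocyte genes (13.3%). A match describes letters, not binding. Treh was at 1.75 and 0.861 CPM in LGR5 cells and at 38.4, 31.7 and 199 in crypt cells (-6.07 ± 0.99, adjusted p = 0.00569), and Rbp2 at 4.5 and 3.87 against 65.3, 62.7 and 1180 CPM (-6.69 ± 1.47, adjusted p = 0.0249). Crypt library 3 was the highest for both, and without it the differences were -4.72 and -3.93 (adjusted p = 0.00142 and 0.00701). Hnf4g, the intestinal HNF4 paralogue, was itself lower, at 97.9 and 104 against 290, 238 and 553 CPM (-1.83 ± 0.32, adjusted p = 0.00776), while Hnf4a was at 1050 and 1030 against 920, 1170 and 1210 CPM (-0.08 ± 0.38, adjusted p = 0.932).

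Genes of dietary lipid absorption were lower for 13 of 20 members, beside 4.12% of all genes, and higher for none. Their median was -3.22. Npc1l1, the cholesterol importer, was at 25 and 23.4 CPM in LGR5 cells and at 431, 243 and 688 in crypt cells (-4.23 ± 0.4, adjusted p = 0.000336). Mogat2, which rebuilds triglyceride from absorbed monoglyceride, was at 10.7 and 6.67 against 151, 120 and 311 CPM (-4.48 ± 0.44, adjusted p = 0.000412). Mttp, which loads lipid onto chylomicrons, was at 46.3 and 48.4 against 476, 432 and 2020 CPM (-4.36 ± 0.66, adjusted p = 0.00414). Its size moved to -3.26 without crypt library 3, the highest of the 5. Dgat1, the triglyceride synthase, and Slc27a4, a fatty acid transporter, differed by -2.79 ± 0.28 and -3.11 ± 0.39. There were 5 calls without LGR5 library 1, 5 without LGR5 library 2 and 11 without crypt library 3.

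Transporters and detoxifying enzymes had lower calls too, beside 4.12% of all genes. Of 36 intestinal transporters 17 were lower and none higher (median -2.02; 16 without crypt library 3, 7 without LGR5 library 1 and 8 without LGR5 library 2). Slc3a1 and Slc7a9, the 2 subunits of the cystine and dibasic amino acid transporter, moved together: Slc3a1 was at 10.3 and 8.61 against 130, 80.9 and 140 CPM (-3.63 ± 0.28, adjusted p = 0.000144), and Slc7a9 at 10.1 and 7.43 against 179, 101 and 145 CPM (-4.01 ± 0.34, adjusted p = 0.000264). Of 35 tested genes of xenobiotic metabolism 19 were lower and none higher (median -2.86; 14 without crypt library 3, 2 without LGR5 library 1 and 2 without LGR5 library 2). Ces2e, a carboxylesterase, was at 50.7 and 41.6 against 453, 455 and 1080 CPM (-3.84 ± 0.43, adjusted p = 0.000771), and Cyp3a11, a drug-metabolising cytochrome, at 2.76 and 0.753 against 93.5, 39.3 and 582 CPM (-7.05 ± 1.6, adjusted p = 0.029). For Cyp3a11 the difference was -5.21 without crypt library 3 (adjusted p = 0.0457), and the call was lost without LGR5 library 1 or LGR5 library 2 (adjusted p = 0.179 and 0.2) and with limma-voom (0.165). Ces2e and Cyp3a11 belong to families of near-identical genes that may share reads.

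Some markers of the ileal segment were affected by crypt library 3 in the other direction. The median of the ileal list was -1.45 with that library and -1.48 without it. With all libraries 14 of its 18 members lay below 0 and 4 above, and 4.12% of all genes were called lower. Osta, a subunit of the bile acid exporter of ileal enterocytes, was at 23.9 and 22.2 CPM in LGR5 cells and at 425, 342 and 175 in crypt cells, a difference of -3.77 ± 0.34 (adjusted p = 0.000299) that grew to -4.06 (adjusted p = 2.72e-05) without that library. Slc10a2, the apical bile acid importer, was at 2.11 and 0.969 against 38.1, 17.5 and 0.915 CPM. It overlapped only through crypt library 3, and its adjusted p went from 0.0809 to 0.00375 without it (-3.59 ± 1.11 and -4.15). Fabp6, at 112 and 48.4 CPM in the LGR5 libraries, gave -4.29 ± 1.66 (adjusted p = 0.148) and -4.86 (adjusted p = 0.063). Amn and Cubn, the 2 parts of the receptor for the vitamin B12 carrier, were lower by -1.69 ± 0.22 and -5.07 ± 0.67, Cubn with 7.63 and 1.83 against 203, 122 and 159 CPM. In all, 7 of 18 ileal genes were lower with crypt library 3 and 10 without it, and 8 of 19 jejunal genes with it and 8 without it, the jejunal median moving from -5.10 to -2.51. Without LGR5 library 1, and likewise without LGR5 library 2, the ileal list had 3 lower calls and the jejunal list 2, and the jejunal list had 13 without crypt library 1 and 12 without crypt library 2.

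Among Hox and other positional factors, 1 of 31 tested members was higher and 1, Hnf4g, was lower, beside 1.50% and 4.12% of all genes. Hoxa3, an anterior Hox gene, was at 6.07 and 5.49 CPM in LGR5 cells and at 1.71, 1.66 and 0.801 in crypt cells (2.05 ± 0.41, adjusted p = 0.015). Hoxb8 was at 46.1 and 24.5 against 6.84, 7.69 and 0.229 CPM (2.85 ± 0.85, adjusted p = 0.0718), and Hoxb9, named after its values were seen, at 82.8 and 67.8 against 19.4, 23.2 and 0.229 CPM. For these 2 genes crypt library 3 was near 0. Without LGR5 library 1 or LGR5 library 2 the list had 0 calls, and 3 and 2 lower ones without crypt libraries 1 and 2. Without crypt library 3, 3 members were higher, Hoxa3, Hoxb8 (2.28, adjusted p = 0.0433) and Hoxb9 (1.82, adjusted p = 0.031).

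Immediate early genes are the transcription factors and phosphatases that cells switch on within minutes of a stimulus and also during dissociation. They were higher for 6 of 46 tested members, beside 1.50% of all genes, and lower for none, with a median of 0.39. The promoters of Fos and Dusp1 are shown because both genes were higher and both hold TGACGT, the core of the cyclic AMP response element, searched on both strands and printed as above.
Fos, chr12:85473640-85473889, plus strand: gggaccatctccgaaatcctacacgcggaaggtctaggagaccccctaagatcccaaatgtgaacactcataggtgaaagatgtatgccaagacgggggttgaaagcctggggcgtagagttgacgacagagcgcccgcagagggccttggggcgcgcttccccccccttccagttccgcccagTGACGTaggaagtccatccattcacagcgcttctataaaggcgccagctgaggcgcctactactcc
Dusp1, chr17:26508473-26508722, minus strand: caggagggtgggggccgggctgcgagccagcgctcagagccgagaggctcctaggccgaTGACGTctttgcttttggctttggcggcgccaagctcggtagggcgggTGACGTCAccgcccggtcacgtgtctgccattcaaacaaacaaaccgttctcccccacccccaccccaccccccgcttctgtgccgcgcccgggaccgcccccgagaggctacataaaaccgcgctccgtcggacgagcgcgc
Fos held 1 match, beginning 66 bases before the start, and Dusp1 held 3, beginning 191, 143 and 141 bases before it, the last 2 of which overlap on opposite strands. The motif stood in 6.56% of the 27025 promoters, in 9.89% of those of tested genes, in 9 of 37 immediate early promoters (24.3%) and in 4.35% of those of genes higher in LGR5 cells. These counts describe letters only. The motifs were picked after the expression values were known.

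Fos, which forms the AP-1 transcription factor with Jun, was at 319 and 151 CPM in LGR5 cells and at 28.2, 16.9 and 19.7 in crypt cells (3.44 ± 0.78, adjusted p = 0.029). Jun was at 444 and 200 against 58.4, 41 and 23.3 CPM (2.97 ± 0.64, adjusted p = 0.0216). Egr1, a zinc finger factor, was at 312 and 117 against 25.3, 10.7 and 9.03 CPM (3.83 ± 0.88, adjusted p = 0.0299). The groups did not overlap for any of them, and LGR5 library 1 was at least 2 times library 2. Dusp1, a phosphatase that switches off MAP kinases, was at 50.7 and 23 against 4.9, 2.41 and 2.06 CPM (3.55 ± 0.85, adjusted p = 0.0347). Fosb had the largest difference of the list, at 117 and 21.5 against 0.912, 0.151 and 0.686 CPM (6.8 ± 1.08, adjusted p = 0.00524), and Arc was at 21.8 and 2.48 against 0.57, 1.36 and 0.457 CPM (3.96 ± 0.9, adjusted p = 0.0286). Without crypt library 3 only Fosb stayed called (adjusted p = 0.0232), the other 5 having adjusted p-values from 0.0739 for Jun to 0.105 for Dusp1, and without LGR5 library 1 the list had 0 calls. It had 3 without each of crypt library 1, crypt library 2 and LGR5 library 2. The time from tissue to lysis for each group is not given in the sources used here, and its part in these levels was not tested.

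Genes of DNA replication and mitosis were examined as separate lists. Among 38 genes of DNA replication edgeR, DESeq2 and limma-voom each called 0, and 1 had an unadjusted p under 0.05. Their median difference was 0.32, and 33 lay above 0. For 13 both LGR5 libraries lay above all crypt libraries and for 2 below, against 21.7% and 22.7% of all genes. Among 36 mitotic genes all 3 tools also called 0, and 0 had an unadjusted p under 0.05, with a median of 0.1. Of these 27 lay above 0, and for 11 both LGR5 libraries lay above all crypt libraries and for 0 below. Mki67, the proliferation antigen, was at 502 and 384 CPM in LGR5 cells and at 290, 361 and 368 in crypt cells (0.39 ± 0.44, adjusted p = 0.655). Both LGR5 libraries were above the crypt libraries, by less than the test resolves.

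Of 24 tested cell cycle inhibitors and p53 targets 4 were lower and none higher, beside 4.12% and 1.50% of all genes. The list's median was -0.07, with 10 members above 0 and 14 below. Cdkn2b, the inhibitor p15 that holds cells in G1, was at 7.17 and 8.39 CPM in LGR5 cells and at 85.6, 73.3 and 95.3 in crypt cells. The libraries within each group were nearly level, and the difference of -3.44 ± 0.26, 10.9-fold, had an adjusted p of 0.000136 (-3.35 and 0.000178 without crypt library 3). Cdkn1a, the inhibitor p21, was at 28.6 and 54.3 against 108, 118 and 122 CPM (-1.49 ± 0.31, adjusted p = 0.0181). Sesn1, a stress-induced p53 target, differed by -1.59 ± 0.3, and Fas, the death receptor, by -2.28 ± 0.54 (adjusted p = 0.0128 and 0.0336). Fas lost its call without crypt library 3 (adjusted p = 0.0853), where the list had 3 lower calls and 1 higher. The list had 1 lower call without LGR5 library 1 and 2 without LGR5 library 2.

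Of 53 cytosolic ribosomal protein genes 51 lay above 0, with a median of 0.5, but edgeR and limma-voom called 0, 10 had an unadjusted p under 0.05 and DESeq2 called 5 higher and 1 lower. All 38 respiratory chain genes lay below 0, with a median of -0.35, 0 called by edgeR, 4 at an unadjusted p under 0.05 and 4 called lower by DESeq2. Glycolysis and hypoxia genes were lower for 4 of 26 members, with Pfkp, the platelet-type phosphofructokinase, at 31.1 and 49.3 against 192, 174 and 256 CPM (-2.37 ± 0.26, adjusted p = 0.000731). Fatty acid oxidation genes were lower for 3 of 22 and higher for none. For both lists the share of all genes called lower was 4.12%. Without LGR5 library 1 and without LGR5 library 2 the glycolysis list had 2 and 1 lower calls and the oxidation list 0 and 0, and the oxidation list had 1 without crypt library 3.

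Markers of cells outside the epithelium were examined as 5 lists, beside 1.50% of all genes called higher and 4.12% lower. The 28 tested lymphocyte genes summed to 16.8 and 46.5 CPM in LGR5 cells and to 4210, 262 and 1100 in crypt cells, all 28 lay below 0 with a median of -6.46, and 9 and 3 of them were at 0 in LGR5 libraries 1 and 2. Ccl5, a T cell chemokine, was at 0.368 and 1.83 against 461, 9.8 and 134 CPM (-7.55 ± 1.89, adjusted p = 0.0425), and Cd3g, of the T cell receptor complex, at 0.0919 and 1.18 against 132, 8.59 and 35.6 CPM (-6.57 ± 1.69, adjusted p = 0.0471). These 2 passed of the 28, while 11 passed without crypt library 2, the lowest of the crypt libraries. DESeq2 called 24, limma-voom 0 and edgeR on the compared groups alone 0. Ccl5 and Cd3g had adjusted p-values of 0.0681 and 0.0717 without crypt library 3. The count was 0 without crypt library 1, LGR5 library 1 or LGR5 library 2. Cd7, a lymphocyte surface protein outside the list, was at 1.1 and 1.08 against 329, 18.2 and 111 CPM (-7.12 ± 1.69, adjusted p = 0.0339, and 0.0579 without crypt library 3).

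Red blood cell genes were lower for 5 of 7, at sums of 4.78 and 24.3 against 353, 439 and 67.7 CPM, and 0 were called without LGR5 library 1 and 2 without LGR5 library 2. Hbb-b1, a beta globin, was at 0.46 and 1.72 against 168, 218 and 21.2 CPM (-6.98 ± 1.09, adjusted p = 0.00472, and 0.104 with limma-voom). For the red blood cell list DESeq2 called 5 lower, limma-voom 0 and edgeR on the compared groups alone 0. Stromal and endothelial genes summed to 40.2 and 33 against 183, 74.9 and 75.2 CPM. Of 19 tested, 16 lay below 0 (median -1.95). Col1a2, a fibrillar collagen chain, was called lower and Vwf, an endothelial clotting protein, higher. DESeq2 called 5 lower and 1 higher, limma-voom 2 and 1. Myeloid genes summed to 151 and 129 against 410, 165 and 185 CPM. Of 17 tested, 15 lay below 0 (median -3.42). DESeq2 called 8 lower and 1 higher, limma-voom 0 and 1. With edgeR Cd14 alone was called, in the higher direction at 27.9 and 23 against 9.46, 13.6 and 6.52 CPM. Neither list had a call in either direction without crypt library 3, LGR5 library 1 or LGR5 library 2. The myeloid list had 0 calls without crypt library 1 as well, and 2 lower ones without crypt library 2. Neural and glial genes had 3 members tested, with a median of 0.18. For these edgeR, DESeq2 and limma-voom called 0, and 0 had an unadjusted p under 0.05. The list summed to 8.18 and 12.5 against 9.35, 13.4 and 6.52 CPM, which overlapped. Sums of these lists include measured members left out of the test. They cover 9 red blood cell, 24 stromal and endothelial, 20 myeloid and 10 neural and glial genes. The order of the crypt libraries differed by list: crypt library 1 was the highest for lymphocyte genes and crypt library 3 for the enterocyte list, which summed to 6670 and 7240 CPM in LGR5 cells and to 23700, 19100 and 39300 in crypt cells. How much these other cells add to the differences in epithelial genes was not tested.

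**Figure D4:**
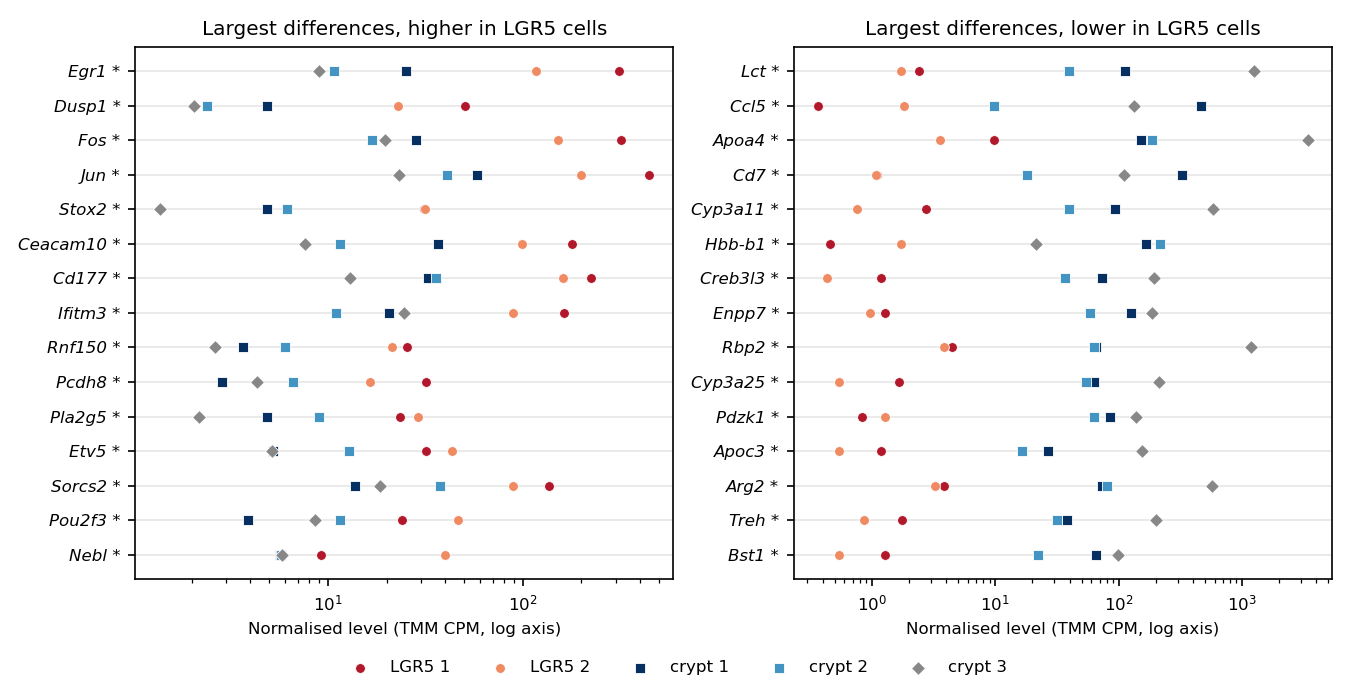
Normalised level (TMM CPM, log axis) in each of the 5 ileal libraries of the 15 genes with the largest higher and the 15 with the largest lower difference, among called genes with no overlap and a mean log2 CPM of at least 3. Crypt library 3, the grey diamond, is the highest for Lct, Apoa4 and Rbp2 and the lowest for Stox2 and Cd177.

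Other genes were among the 15 with the largest higher differences. Stox2, a winged-helix protein, was at 31.3 and 31.4 CPM in LGR5 cells and at 4.9, 6.18 and 1.37 in crypt cells (2.93 ± 0.5, adjusted p = 0.00766). Cd177, a GPI-anchored protein best known on neutrophils, was at 225 and 160 against 32.8, 36 and 13 CPM (2.82 ± 0.47, adjusted p = 0.00654). Ifitm3, an interferon-induced membrane protein, was at 163 and 89.6 against 20.6, 11 and 24.5 CPM (2.75 ± 0.42, adjusted p = 0.00447). All 3 kept their calls without crypt library 3 (adjusted p = 0.00631, 0.0144 and 0.00853).

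Rnf150, a membrane-anchored RING finger protein, was at 25.6 and 21.3 CPM in LGR5 cells and at 3.65, 6.03 and 2.63 in crypt cells (2.52 ± 0.36, adjusted p = 0.00279). Sorcs2, a sorting receptor of neurons, was at 137 and 88.7 against 13.7, 37.8 and 18.6 CPM (2.28 ± 0.41, adjusted p = 0.00983). Ceacam10, a secreted member of the CEA family, was at 178 and 99.1 against 36.8, 11.6 and 7.66 CPM (2.88 ± 0.61, adjusted p = 0.0212, and 0.0579 without crypt library 3). Nebl, a nebulin-like actin protein, was at 9.19 and 40.1 against 5.7, 5.73 and 5.83 CPM, with LGR5 library 2 far above the other 4 (2.1 ± 0.54, adjusted p = 0.0458, and 0.107 without crypt library 3).

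Among the largest lower differences, Lct, the lactase of the brush border, was at 2.39 and 1.72 CPM in LGR5 cells and at 112, 39.9 and 1240 in crypt cells (-7.8 ± 1.55, adjusted p = 0.015), and without crypt library 3 the difference was -5.19 (adjusted p = 0.00373). Apoa4, a chylomicron apolipoprotein, went from -7.53 ± 1.67 to -4.65 in the same way, at 9.84 and 3.55 against 151, 188 and 3390 CPM. Both had a smaller difference but a lower adjusted p without that library. Creb3l3, a transcription factor of lipid metabolism, was at 1.19 and 0.43 against 73.4, 36.9 and 192 CPM (-6.9 ± 0.83, adjusted p = 0.00112; -6.03 without crypt library 3). Pdzk1, a scaffold for brush border transporters, was at 0.827 and 1.29 against 84.7, 63.5 and 137 CPM (-6.49 ± 0.68, adjusted p = 0.000583). Reg3a, an antimicrobial lectin, was the 1 member of 18 defence genes that passed, beside 4.12% of all genes called lower. It was at 3.22 and 5.17 against 60.3, 96.5 and 329 CPM (-5.28 ± 0.84, adjusted p = 0.00523, and -4.23 without crypt library 3). The median of the 18 was -0.48, with 8 above 0 and 10 below. That list had 3 lower calls without crypt library 3 and 0 without LGR5 library 1 or LGR5 library 2.

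Leaving out crypt library 3 removed a larger share of the higher calls than of the lower ones. Of the 221 higher genes 67 (30.3%) were also called without it, which are 80.7% of the 83 called then. Of the 607 lower genes 395 (65.1%) were, which are 93.4% of the 423. All 828 kept their sign, and 620 had a smaller difference, 159 of the higher and 461 of the lower genes. Since these fits share 4 of the 5 libraries, the overlap is a description.

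**Figure D5:**
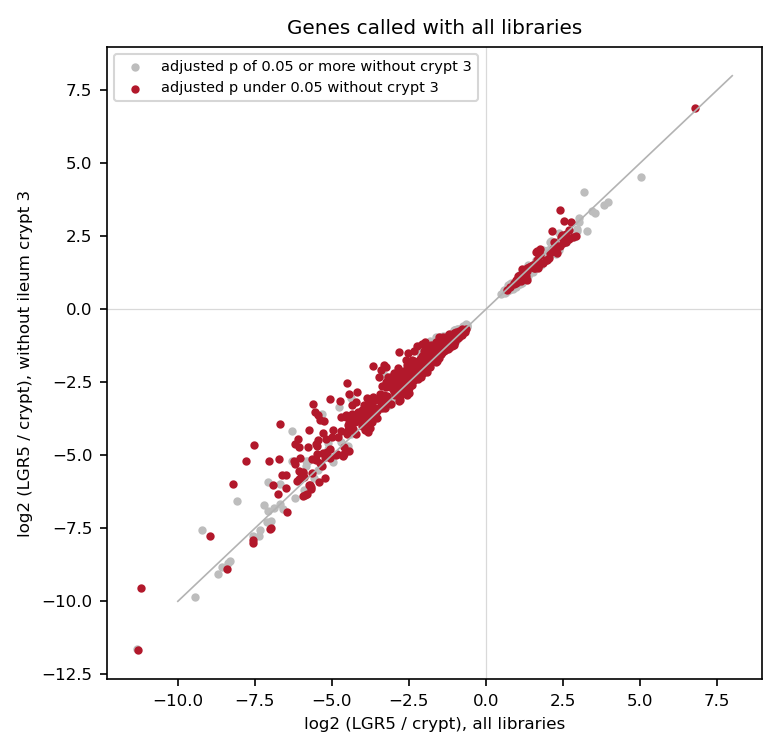
Log2 difference, ileal LGR5 minus crypt cells, of the 828 called genes with all libraries (horizontal axis) and without crypt library 3 (vertical axis). Red points stayed called and grey points did not. All 828 lie in the quadrants of equal sign, and 462 stayed called.

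The same comparison in the jejunum, from other libraries, called 3405 of 14750 genes (23.1%), 1368 higher (9.27%) and 2037 lower (13.8%), and the crypt base columnar list gave 24 higher and 1 lower there with a median of 1.96. A difference between these counts is not a test. Tested directly, as an interaction, the signed LGR5 minus crypt difference was higher in the ileum for 2 genes (0.0136%) and lower for 0 with edgeR. At an unadjusted p under 0.05 there were 1014 genes (6.87%). For both called genes the ileal difference was the smaller in size. DESeq2 called 59 and limma-voom 0. Unc5b (ENSMUSG00000020099), a netrin receptor, was at 32.5 and 26.8 CPM in ileal LGR5 cells and at 37.7, 27.7 and 27.3 in ileal crypt cells, which overlapped. In the jejunum it was at 3.82 and 4.01 CPM in LGR5 cells and at 26.6, 27.9 and 23.8 in crypt cells. The ileal difference was -0.06 (adjusted p = 0.892), the jejunal one -2.73, and the interaction 2.67 ± 0.3 (adjusted p = 0.0127).

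C530008M17Rik (ENSMUSG00000036377), a gene of no assigned function, was at 24.3 and 37 CPM in ileal LGR5 cells and at 88, 79.7 and 78.1 in ileal crypt cells, and at 5.01 and 5.73 against 78.8, 78.2 and 81.2 in the jejunum. It was lower in LGR5 cells in both segments, by -1.42 in the ileum (adjusted p = 0.00174) and -3.88 in the jejunum, an interaction of 2.46 ± 0.26 (adjusted p = 0.0127). For both genes the crypt cells of the segments had similar levels and the LGR5 cells did not. Both calls were lost with limma-voom, without ileal crypt library 2, without jejunal LGR5 library 1, without jejunal LGR5 library 2 and when the 4 groups were fitted alone. Without ileal crypt library 3, 8 genes passed (0.0543%, with 1241 or 8.42% at an unadjusted p under 0.05), among them Abcb1a, Lpgat1, Sec14l2, Creb3l2 and Efr3b. The count was 20 without crypt library 1 and 6 without ileal LGR5 library 1.

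CD166 cells of the ileum, sorted for the adhesion protein that Alcam encodes, differed from LGR5 cells at few genes. edgeR called 2 lower in LGR5 cells (0.0136%) and 0 higher, with 852 genes (5.78%) at an unadjusted p under 0.05, while DESeq2 called 82 and limma-voom 1. Sst, the hormone somatostatin of D cells, was at 15.1 and 32.8 CPM in LGR5 cells and at 543 and 1070 in CD166 cells (-5.07 ± 0.62, adjusted p = 0.037). Iapp, amylin, a peptide hormone named after its values were seen, was at 0.276 and 1.08 against 24.1 and 59.9 CPM (-5.97 ± 0.71, adjusted p = 0.037). The count was 0 without LGR5 library 1, without LGR5 library 2 and without CD166 library 2, 15 without CD166 library 1 and 4 without crypt library 3, which enters only the shared spread. Against the same 3 crypt libraries CD166 cells gave 1235 genes (8.37%), 477 higher (3.23%) and 758 lower (5.14%). The crypt libraries are shared, so the values are only set side by side: Lyz1 was at 15700 and 10600 CPM in CD166 cells, a CD166 minus crypt difference of -0.01, where LGR5 minus crypt was -1.95.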

How the data were processed

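RNA was sequenced with a TruSeq kit as single-end 50 base reads, per the labels' protocols. The deposited file of each library holds expected counts for 36401 genes, estimated by the authors. The submitters' processing notes name mm9 and DESeq; no source used here gives the counting tool or the annotation. The files' second form, log2 values centred per gene, was not used. Of the counts above 0, 50.6% were whole within 0.001, and all were rounded to whole numbers.

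Tests used edgeR 4.0.16 in R 4.3.3: TMM scaling, filterByExpr (minimum count 10, total 15), 1 mean for each of the 6 groups over all 14 libraries, the quasi-likelihood test, and Benjamini-Hochberg adjustment over 14750 genes, called at 0.05. Levels are TMM-scaled counts relative to library size (CPM), not per length, so genes are not ranked against each other. Alternatives were DESeq2 1.42.0, limma 3.58.1 (voom), other scalings and filters, fewer libraries, and a replicate block. The steps were tested on simulated data.

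The gene lists and comparisons were chosen with earlier results of these data known. Genes were named by rule: the 15 largest called differences per direction among non-overlapping genes whose log2 CPM averaged 3 or more, every stem cell and sort marker, and up to 8 members of each other list (called ones by p, then by level). The mitochondrial genome list matched no gene in the files. Symbols are those the files pair with their gene identifiers. Some genes the rule names are not reported here.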

Additional observations from a re-analysis of the deposited data

Results flagged for a closer look

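The LGR5 minus crypt difference of 2 genes differed between the segments by a test of the interaction. For Unc5b the signed difference was higher in the ileum than in the jejunum by 2.67 on the log2 scale. The level in LGR5 cells was close to that of crypt cells in the ileum and below it in the jejunum. For C530008M17Rik the signed difference was higher in the ileum by 2.46, with LGR5 cells lower in both segments and by less in the ileum.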

How the results depend on the processing

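For LGR5 minus crypt cells in the ileum, 828 genes were called. The count was 2068 with the DESeq2 Wald test (605 higher, 1463 lower), 204 with the compared groups fitted alone and 449 with the 4 libraries left after removing crypt library 3 fitted alone. Leaving out 1 library at a time gave 116 to 981, the lowest without LGR5 library 1. DESeq2 size factors, both filters, limma-voom (738), the 7 ileal libraries alone and unrounded counts stayed within 1.5 times.

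For the interaction with segment the 2 calls became 5 without a filter, 59 with DESeq2, 0 with limma-voom, 0 with the compared groups alone and 0 to 20 on leaving out 1 library. For LGR5 minus CD166 cells the 2 calls became 8 without a filter, 82 with DESeq2, 1 with limma-voom, 17 with the compared groups alone, 0 to 15 on leaving out 1 library, and 4 without ileal crypt library 3, an alternative chosen after seeing the data. Causes were not tested.

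With the replicate number as a block the counts were 694, 2 and 3. The Paneth list had 5 lower calls with it. No label ties the numbers to a shared animal or day, and each check has 2 numbers only, so the samples were not treated as paired: deviations of same-numbered libraries correlated at 0.02 across 14750 genes for LGR5 and crypt cells in the ileum, at -0.01 in the jejunum and at 0.23 for LGR5 and CD166 cells.

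Of 115 named genes called in the ileum, 25 stayed called on leaving out each of the 5 libraries and 78 without crypt library 3, and 0 changed sign under any alternative run. Among the 25 were Sis, Enpep, Npc1l1, Slc3a1, Osta and Cdkn2b, and 1 gene higher in LGR5 cells, Rnf150. Low genes are limited by depth, and the 2 LGR5 libraries limit the precision of all.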
